A study of Mus musculus with 53 samples.

Results

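Undifferentiated Eed-null mouse embryonic stem (ES) cells were compared with wild-type ES cells on Affymetrix mouse expression arrays. The comparison used 12 of the 53 arrays of the series, chosen by their sample titles: 5 Eed-null arrays and 7 wild-type arrays, all from day 0, before the cytokine LIF was withdrawn. The question was how losing a Polycomb protein, Eed or Ezh2, changes the expression profile. Eed-null replicates 1 to 5 carry no line name in the labels, which speak of a mutant cell line for each gene, so genotype and line cannot be told apart. Wild-type replicates 1 and 2 were line J1, replicates 3 and 4 line CJ7 and replicates 5 to 7 line E14tg1. Ezh2-null cells at day 0 (6 arrays), Eed-null and wild-type cells at day 2 (2 and 4 arrays) and day 6 (2 and 5 arrays) of LIF withdrawal, and mouse embryonic fibroblasts (MEF, 2 arrays) were used beside them. All ES cells had been grown on feeder cells, which were depleted before harvest by letting them settle on tissue plates for a short time. Arrays of a group are titled biological replicates, but the labels do not state whether cultures or only preparations were repeated; the p-values thus refer to the spread between these samples, which may be technical.

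Polycomb repressive complex 2 (PRC2) methylates lysine 27 of histone H3 through its catalytic subunit Ezh2 or the paralog Ezh1, and holds many developmental genes silent in ES cells. Eed binds the methylated histone tail and is needed for the activity of the complex with either catalytic subunit, whereas loss of Ezh2 alone can be covered in part by Ezh1. ES cells without PRC2 are known to self-renew, and the genes that the complex holds silent include regulators of germ layers, of the trophoblast and of the germline.

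Signal is the deposited linear intensity, given for Eed-null replicates 1 to 5 in that order and for wild type as the lowest, median and highest of its 7 arrays unless a range is named. A log2 fold change is the difference of group means of log2(signal + 32) with its standard error, which understates the change of dim genes, and a gene was called when the adjusted p lay under 0.05 and the change was at least 2-fold. Of 13807 genes tested, 210 (1.52%) were called higher in Eed-null than in wild-type arrays and 102 (0.739%) were called lower. The balance turned with arrays centred on their median (132 higher and 200 lower) and with an estimated fibroblast share subtracted from each array (158 higher and 304 lower). For 139 of the 210 and 92 of the 102, the arrays of the groups did not overlap. Over all genes tested, the Eed-null arrays all lay above wild type for 14.1% and all below for 9.35%, and the median log2 fold change was 0.04. The unadjusted p lay under 0.05 for 49.1% of the genes tested.

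The arrays stood apart in ways other than genotype. Fibroblast signal (the fibroblast share of an array), read as the median over 15 fibroblast genes of an array's signal in percent of the MEF mean, was 19.5% in Eed-null replicate 1, 9.93%, 8.17% and 9.17% in replicates 2 to 4 and 1.82% in replicate 5. The MEF arrays stand in for the feeder cells, which were not measured themselves. The share was 1.59% to 3.93% in Ezh2-null arrays, 1.56% to 1.85% in replicates 1 to 3 of wild type and 3.64% to 4.82% in its replicates 4 to 7. Differences between a pair of probe sets of the same gene (2347 genes) were centred on each gene's mean over the day 0 arrays and correlated between arrays. Such centring pushes correlations between unlike sets of arrays downward, so a negative sign alone is no result. Only values within sets beside those between sets were read. The Eed-null arrays correlated with each other at 0.41 to 0.86, with wild-type replicates 1 to 3 at -0.40 to -0.03 and with wild-type replicates 4 to 7 at -0.60 to -0.26. Wild-type replicates 4 to 7 correlated positively with the Ezh2-null arrays (0.34 to 0.63) and negatively with wild-type replicates 1 to 3 (-0.40 to -0.15), a split that divides the CJ7 line. Array medians were 58.3 to 62.2 in Eed-null and 50.5 to 54.6 in wild-type arrays. Genotype and a technical difference between the array sets therefore cannot be told apart.

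**Figure D1:**
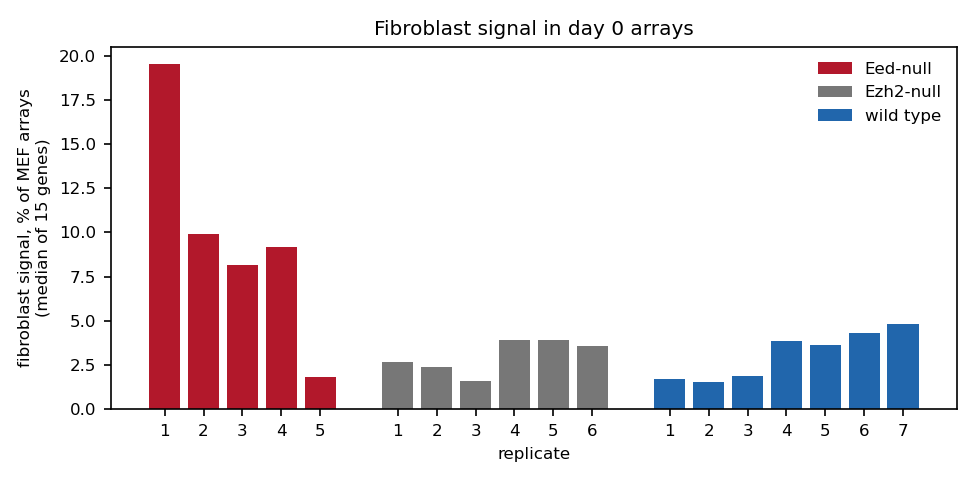
Fibroblast signal of each day 0 array in percent of the MEF mean (vertical axis, linear), as the median over 15 fibroblast genes, for Eed-null, Ezh2-null and wild-type replicates. Eed-null replicate 1 (19.5%) and replicates 2 to 4 (8.17% to 9.93%) stand above all other arrays, and Eed-null replicate 5 (1.82%) lies among the lowest wild-type arrays.

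Neither the PRC2 genes nor most of the pluripotency genes were called, though some passed the adjusted p limit and missed only the 2-fold minimum. None of 12 PRC2 genes was called, with a median log2 fold change of -0.15. Eed read 2982, 2819.9, 2823, 3057 and 3099 in Eed-null replicates 1 to 5, against a lowest, median and highest signal of 2172, 2610.0 and 2885 in wild type, a difference of 0.23 ± 0.12 (adjusted p = 0.14). No source used here gives the altered part of Eed, so its probe sets do not check the genotype. Suz12, the subunit that holds the complex together, had 2625, 2372, 2278, 2617 and 2311 in Eed-null arrays, against 1034, 1512 and 1798 in wild type. All Eed-null arrays lay above all wild-type arrays for Suz12, by 0.76 ± 0.17 (adjusted p = 0.00046), below the 2-fold minimum. A dimmer Suz12 probe set, with means of 535 in Eed-null and 187 in wild-type arrays, differed by 1.38 ± 0.14. The remaining Suz12 probe sets differed by 0.38 to 0.65. Ezh2 differed by -0.31 ± 0.13 (adjusted p = 0.059) and Ezh1 by -0.40 ± 0.09 (adjusted p = 0.00037). The probe sets of Ezh1 did not move alike. An almost equally bright probe set, with means of 111 in Eed-null and 106 in wild-type arrays, differed by 0.07 ± 0.19. The dimmer ones differed by 0.25 ± 0.09 and -0.13 ± 0.09.

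Of 26 pluripotency genes 1 was called, with a median of -0.01, and the summed signal of the list was 54583 to 56742 in Eed-null and 48889 to 58772 in wild-type arrays, against 4224 and 4541 in MEF. Dppa3, a maternal factor that protects DNA methylation in the zygote, had 472, 784, 811, 939 and 826 in Eed-null arrays, against a lowest, median and highest of 122, 262 and 456 in wild type, higher by 1.37 ± 0.24 (adjusted p = 1.3e-05). Nanog, a core transcription factor of pluripotency, had 3770.3, 3478, 3718, 3813 and 3528 in Eed-null arrays, against 1478, 1947 and 2034 in wild type. The groups did not overlap for Nanog, with Eed-null above by 0.96 ± 0.22 (adjusted p = 0.00046), just short of 2-fold; it passed 2-fold with quantile normalisation (1.07). Pou5f1 went the other way, with 2479.8 to 3296 in Eed-null and 3802 to 4499 in wild-type arrays and no overlap, a difference of -0.43 ± 0.18 (adjusted p = 0.058). The groups overlapped for Sox2 (-0.04 ± 0.26). The 11 primed epiblast genes had a median of -0.16 and none was called; Pou3f1 read 226, 291, 228 and 209.8 in Eed-null replicates 1 to 4 but 555 in replicate 5, within the wild-type range of 237 to 756. In the 19 proliferation genes none was called (median -0.08).

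Genes switched between background and clear signal were few. With a ceiling of 64 signal units on 1 side and at least 4-fold between the nearest arrays, 2 genes were on and 4 were off in Eed-null cells. Nod1, an intracellular sensor of bacterial peptidoglycan, read 480.0, 415, 412, 431 and 439.9 in Eed-null arrays, against 30.2, 44.0 and 52.5 (lowest, median, highest) in wild type. Its Eed-null values lay within a narrow band far above wild type, higher by 2.66 ± 0.09 (adjusted p = 1.5e-25). Shfl, an interferon-induced antiviral factor that blocks ribosomal frameshifting, read 237, 284, 406, 235 and 276 in Eed-null arrays, against 32.8, 41.1 and 57.8 in wild type, higher by 2.10 ± 0.13 (adjusted p = 3.9e-16). MEF had 584 for Nod1 and 12.8 for Shfl, and replicate 5, with the least fibroblast signal of the Eed-null arrays, lay within the range of the others for both.

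The genes that were off were Dpys, Kbtbd11, Lor and Trub1. Dpys, which encodes the dihydropyrimidinase of pyrimidine breakdown, read 10, 11.2, 15.6, 11.4 and 17.1 in Eed-null arrays, against 155, 348 and 652 in wild type, a difference of -2.95 ± 0.16 (adjusted p = 2e-18). Trub1, a pseudouridine synthase, read 39.4, 29.3, 52.2, 44.4 and 50.7 in Eed-null arrays, against 229.7, 288 and 331 in wild type, a difference of -2.07 ± 0.23 (adjusted p = 1.3e-09). Both sets of Eed-null values lay near background, and no array overlapped with wild type. Kbtbd11, a BTB and Kelch domain protein, had 24.2 to 43.5 in Eed-null and 209.7 to 871 in wild-type arrays (-2.95 ± 0.22, adjusted p = 4.1e-14), and Lor, the loricrin of the cornified skin barrier, had 4.30 to 9.80 in Eed-null and 114 to 311 in wild-type arrays (-2.69 ± 0.26, adjusted p = 8.8e-11). For each of the 4 genes the array carries further probe sets, which changed by less than 2-fold and had group means of 47.3 or less. With averaged probe sets Kbtbd11 (-0.71) and Lor (-0.80) missed the fold minimum.

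**Figure D2:**
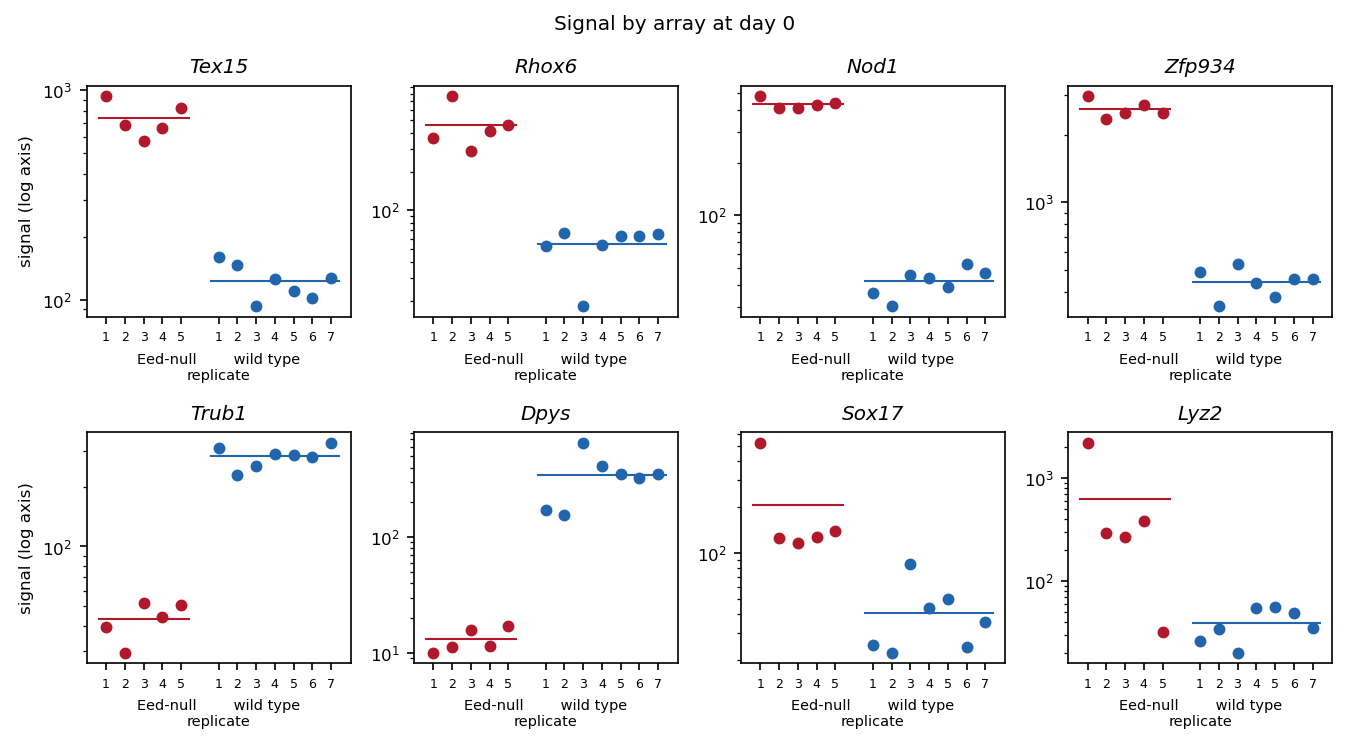
Signal of 8 genes (log axes) in each Eed-null array (replicates 1 to 5, left) and each wild-type array (replicates 1 to 7, right) at day 0; lines are group means. Tex15, Rhox6, Nod1 and Zfp934 are higher and Trub1 and Dpys lower in every Eed-null array, whereas Lyz2 is near wild type in replicate 5 and Sox17 is highest in replicate 1.

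Genes of the germline and of the X-linked Rhox cluster were among the largest rises. The Rhox genes encode homeobox proteins of reproductive tissue and placenta. Of the 4 Rhox genes tested 3 rose (background 1.52%), and of 23 germline genes 3 rose and none fell (median 0.07). Rhox6 read 366, 764, 288, 410.2 and 457 in Eed-null arrays, against 18.1, 63.7 and 66.8 in wild type, higher by 2.45 ± 0.41 (adjusted p = 5.1e-06). Rhox9 read 243, 590.2, 228, 287 and 324 in Eed-null arrays, against 38.0, 63.7 and 70.4 in wild type, higher by 1.92 ± 0.25 (adjusted p = 4.1e-08). Replicate 2 was the highest Eed-null array for both, and no Eed-null array overlapped with wild type. Rhox5, next to Rhox6 on chromosome X among the genes tested, was bright in all Eed-null arrays (2328 to 3297) but spread from 330.2 to 2580.5 over wild type. It rose by 1.37 ± 0.38 (adjusted p = 0.0037), and not against the J1 arrays alone, which were the highest wild-type arrays (0.29, adjusted p = 0.71). Rhox6 and Rhox9 are related in sequence, so their probe sets may share signal.

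Tex15, needed for meiotic recombination and for silencing of transposons in testis, read 935, 680.0, 574, 663 and 827 in Eed-null arrays, against 92.9, 126 and 160.0 in wild type, higher by 2.30 ± 0.16 (adjusted p = 4e-15). Sycp1, the transverse filament of the synaptonemal complex, read 197, 237, 241, 264 and 351 in Eed-null arrays, against 29.2, 44.0 and 68.9 in wild type, higher by 1.90 ± 0.11 (adjusted p = 1.9e-17). Tex19.1, a germ cell and ES cell gene linked to retrotransposon control, had 2308 to 2769.5 in Eed-null and 806 to 1446 in wild-type arrays and rose by 1.22 ± 0.24 (adjusted p = 6.9e-05). The arrays of the groups did not overlap for these 3 genes. MEF signal was 16.2 for Tex15, 22.1 for Sycp1, 27.4 for Tex19.1 and 7.15 for Rhox6. Other germline genes did not follow, among them members used in meiotic recombination and in the piRNA pathway: 20 of the 23 were not called.

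Further large rises fell outside the lists. Gm6958, a predicted gene, had the largest rise of all genes whose arrays did not overlap, with 997, 1171, 1796, 1229 and 1083 in Eed-null arrays, against 25.9, 73.7 and 128.3 in wild type (3.63 ± 0.23, adjusted p = 3.9e-16). Zfp934, a zinc finger gene, read 2961, 2348, 2493, 2719 and 2491 in Eed-null arrays, against 345, 454 and 533 in wild type (2.48 ± 0.13, adjusted p = 5.2e-19), and its other probe set changed alike (2.46). Nrk, a kinase gene of chromosome X expressed in placenta, had 268 to 343 in Eed-null and 24.4 to 89.3 in wild-type arrays (2.01 ± 0.17, adjusted p = 1.3e-12). Pmaip1, the proapoptotic BH3-only protein Noxa and a p53 target, had 1433 to 1808 in Eed-null and 186 to 466 in wild-type arrays (2.13 ± 0.17, adjusted p = 5.7e-13). It was the 1 member called of 21 p53 targets, whose median was -0.13. MEF signal was 16.1 for Nrk and 106 for Pmaip1. It was 1806 for Gm6958, above every Eed-null array.

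Endoderm and basement membrane genes rose in number, with Eed-null replicate 1 ahead. Extraembryonic endoderm takes up maternal protein through Cubn and Amn, and lays down type IV collagen and laminin. Of 19 endoderm genes 6 rose and none fell (median 0.48, against 0.04 over all genes tested), and of 15 basement membrane genes 4 rose and none fell (median 0.71). The summed endoderm signal was 3845 in Eed-null replicate 1, 2346 to 2643 in replicates 2 to 4 and 1898 in replicate 5, against 1226 to 1561 in wild-type arrays.

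Sox17, an endoderm transcription factor, read 527, 126, 116, 127 and 139.5 in Eed-null arrays, against 22.3, 35.3 and 84.4 in wild type, higher by 1.54 ± 0.33 (adjusted p = 0.0002). Replicate 1 stood far above the other Eed-null arrays, which lay above the highest wild-type array, CJ7 replicate 3. The second Sox17 probe set differed by 0.62 ± 0.15, with means of 104 in Eed-null and 52.6 in wild-type arrays. Amn read 176, 144, 146, 204 and 91.6 in Eed-null arrays, against 19.6, 43.3 and 70.1 in wild type (1.27 ± 0.15, adjusted p = 4.6e-09). Cubn, its partner receptor, read 584, 343, 274, 309 and 86.6 in Eed-null arrays, against 46.4, 48.8 and 139.8 in wild type (1.78 ± 0.24, adjusted p = 1.5e-07). Eed-null replicate 5 was the lowest Eed-null array for both, and for Cubn it lay below wild-type replicate 3. The clathrin adaptor Dab2 showed the same order, with 228 to 743 in Eed-null and 112 to 229 in wild-type arrays (1.52 ± 0.20, adjusted p = 6.6e-08). Cited1 (1.03 ± 0.18, adjusted p = 9.8e-06) and Thbd, the thrombomodulin of parietal endoderm (1.27 ± 0.20, adjusted p = 2.6e-06), completed the list's calls. Srgn, a proteoglycan core protein, was outside the list and had the same arrays high: 783, 529, 429.6 and 511 in Eed-null replicates 1 to 4, 172 in replicate 5, and 23.3 to 241 in wild type with replicate 3 the highest.

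Gata6, Gata4, Foxa2 and Sox7, transcription factors of the endoderm, were not called, though no Eed-null array overlapped with wild type for them (0.96, 0.65, 0.67 and 0.41). Afp, Ttr, Apob and Hnf4a, secreted proteins and a regulator of mature visceral endoderm, differed from wild type by at most 0.17 on the log2 scale. These 8 genes were chosen after their values were seen. Over the 19 endoderm genes, the Eed-null arrays all lay above wild type for 9 and all below for 1. The shares over all genes tested were 14.1% and 9.35%. MEF signal was 6.05 for Sox17, 28.2 for Amn, 36.2 for Cubn and 4.70 for Cited1, but 1841 for Dab2 and 238 for Thbd, above the Eed-null mean of Thbd (140.0 ± 113). In Eed-null replicate 5 Thbd read 25.9, within the wild-type range of 13.6 to 48.7. For Eed-null replicate 5 against wild-type replicates 1 to 3, the arrays with the least fibroblast signal, the differences were 1.27 for Sox17, 0.49 for Amn, 0.21 for Cubn, 0.56 for Dab2 and 0.19 for Thbd. A single array has no spread of its own, so these are values with no test. Without Eed-null replicate 1 Thbd (0.95) missed the fold minimum, as did Cited1 without any 1 of Eed-null replicates 1 and 2 and wild-type replicates 1 and 2 (0.93 to 1.00). Averaging all probe sets left Dab2 at 0.60.

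Col4a1 and Col4a2 encode the chains of the main type IV collagen and are transcribed away from each other from a shared promoter region on chromosome 8. Their annotated start sites lie 21 bases apart in GRCm38.p6, at 11312826 for Col4a1 and 11312805 for Col4a2. With these strands the annotated transcripts overlap at their starts, and no gap lies between them. The RefSeq windows of 300 bases at both start sites, chr8:11312777-11313076 on the minus strand for Col4a1 and chr8:11312555-11312854 on the plus strand for Col4a2, are shown because the pair rose together. Capitals mark the 78 bases that the windows share, which read as reverse complements of each other. These shared bases hold both annotated start sites and the first transcribed bases of each gene.
Col4a1: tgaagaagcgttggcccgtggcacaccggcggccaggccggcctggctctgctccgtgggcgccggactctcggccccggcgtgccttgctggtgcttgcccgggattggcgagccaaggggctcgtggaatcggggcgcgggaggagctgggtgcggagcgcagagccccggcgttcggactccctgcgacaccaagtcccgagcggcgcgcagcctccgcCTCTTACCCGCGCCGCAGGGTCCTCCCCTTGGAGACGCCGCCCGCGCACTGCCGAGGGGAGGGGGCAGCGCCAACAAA
Col4a2: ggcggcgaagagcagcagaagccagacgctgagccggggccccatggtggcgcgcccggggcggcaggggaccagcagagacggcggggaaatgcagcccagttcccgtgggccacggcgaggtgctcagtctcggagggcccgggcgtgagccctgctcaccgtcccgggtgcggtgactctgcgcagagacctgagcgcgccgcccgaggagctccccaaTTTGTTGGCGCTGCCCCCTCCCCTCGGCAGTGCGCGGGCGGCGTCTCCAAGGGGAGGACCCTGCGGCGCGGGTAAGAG
The windows hold 37 and 33 CpG dinucleotides.

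Col4a1 read 2031, 1137, 811, 849 and 1068 in Eed-null arrays, against 170.1, 354 and 455 in wild type, higher by 1.76 ± 0.20 (adjusted p = 2.8e-09). Col4a2 read 1228, 649.5, 475, 528 and 515 in Eed-null arrays, against 73.3, 169 and 219 in wild type, higher by 1.88 ± 0.19 (adjusted p = 3.7e-10). For both genes replicate 1 was the highest, all Eed-null arrays lay above all wild-type arrays, and replicate 5 lay within the range of replicates 2 to 4. MEF signal was 1070.0 for Col4a1 and 1043 for Col4a2. The laminin chain Lama1 had 1179, 452, 412, 460.4 and 551 in Eed-null arrays, against 173, 192 and 438 in wild type (1.18 ± 0.30, adjusted p = 0.0017). Its Eed-null values overlapped with wild-type replicate 3, and without Eed-null replicate 1 the difference was 0.92. Col4a5 of chromosome X rose by 1.04 ± 0.19 (adjusted p = 1.7e-05), and differed by 0.81 without Eed-null replicate 1, 0.98 without wild-type replicate 2, 0.70 with averaged probe sets and 0.13 once the fibroblast share was subtracted (adjusted p = 0.54). In 10 of the 15 basement membrane genes no array overlapped between the groups, all with Eed-null above, where 14.1% of all genes tested did so.

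Of 15 trophoblast genes tested 4 rose and none fell, and the median was 0.56. Their summed signal was 4072 to 6892 in Eed-null arrays, against 1320 to 1642 (wild-type replicates 1 to 3) and 4254 to 5234 (wild-type replicates 4 to 7). MEF had 1651 and 1915. The sum thus overlapped with 4 of the 7 wild-type arrays. Hand1, a transcription factor of trophoblast giant cells and early mesoderm, read 292, 629, 251, 254 and 280.0 in Eed-null arrays, against 58.8, 63.1 and 71.0 in wild type, higher by 1.87 ± 0.31 (adjusted p = 5.6e-06). Replicate 2 was the highest Eed-null array, and wild type stayed in a narrow band. The second Hand1 probe set differed by 0.38 ± 0.14, with means of 95.0 in Eed-null and 65.0 in wild-type arrays. Tead4, which with Yap directs the trophectoderm programme, had 185 to 279 in Eed-null and 46.0 to 90.3 in wild-type arrays (1.40 ± 0.11, adjusted p = 2.6e-13); its second probe set differed by 0.36, and with averaged probe sets Tead4 (0.88) missed 2-fold. Krt7, a simple epithelial keratin, read 172, 272, 117, 140.3 and 172 in Eed-null arrays, against 15.9, 35.8 and 85.8 in wild type (1.56 ± 0.19, adjusted p = 1.6e-08). MEF signal was 57.0 for Hand1, 82.8 for Tead4 and 18.7 for Krt7.

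Krt18 was called at 1.43 ± 0.45 (adjusted p = 0.0099) with 908 to 2077 in Eed-null arrays, but the wild-type arrays split into 89.3 to 122 (replicates 1 to 3) and 1134 to 1610.2 (replicates 4 to 7). Against wild-type replicates 4 to 7 alone Krt18 differed by 0.00 (adjusted p = 0.99), and with the 12 arrays alone its adjusted p was 0.11. Cdx2, Gata2, Gata3, Plac1 and Esx1, regulators and markers of trophoblast, were not called; their differences were 0.55, 0.56, 0.56, 0.68 and 0.82, with no overlap of arrays. These 5 were singled out after their values were seen. Over the 15 trophoblast genes, the Eed-null arrays all lay above wild type for 8, where 14.1% of all genes tested did so.

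Fibroblast genes were high in the Eed-null arrays other than replicate 5, and macrophage genes mainly in replicate 1. Of 22 fibroblast genes 8 rose and none fell, with a median of 0.80. Their summed signal was 12779 in Eed-null replicate 1, 7246 to 8442 in replicates 2 to 4 and 2231 in replicate 5. Among wild-type arrays it was 1464 to 1504 (replicates 1 to 3) and 3719 to 5258 (replicates 4 to 7), and it was 56939 and 67937 in MEF. Col1a1, the main chain of fibrillar collagen, read 788, 751, 518, 647 and 9.0 in Eed-null arrays, against 3.30, 122 and 237 in wild type (1.99 ± 0.53, adjusted p = 0.0023), and Postn, a matrix protein of mesenchyme, read 492, 121, 138, 161 and 11.4 in Eed-null arrays, against 5.30, 23.8 and 28.1 in wild type (1.72 ± 0.50, adjusted p = 0.005). The lysyl oxidase gene Lox (1.73 ± 0.49), Fbln2 (2.11 ± 0.50), Col1a2 (1.98 ± 0.41), Col3a1 (1.56 ± 0.31), Col5a1 (1.06 ± 0.31) and Col5a2 (1.60 ± 0.43) were called too, though Col5a1 missed 2-fold without any 1 of Eed-null replicates 1 and 2 and wild-type replicates 1 to 3 (0.82 to 0.97). In all 8 replicate 5 was the lowest Eed-null array and did not exceed the highest wild-type array. With cell line as a random block Col1a1 (adjusted p = 0.14), Col1a2 (0.073), Fbln2 (0.095) and Lox (0.16) were not called. Against wild-type replicates 4 to 7 Col1a1 (0.96), Col5a1 (0.51), Col5a2 (0.77), Fbln2 (1.00 after rounding) and Lox (0.73) missed 2-fold, and with averaged probe sets Col3a1 (0.87) and Col5a2 (0.97) did.

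Lyz1 and Lyz2, the lysozyme genes of Paneth cells and macrophages, are near-identical neighbours on chromosome 10, so their probe sets may share signal. Lyz2 read 2178, 289.6, 269, 387 and 32.3 in Eed-null arrays, against 20.3, 35 and 56.3 in wild type, higher by 2.35 ± 0.35 (adjusted p = 7.4e-07). Lyz1 read 2122, 249, 139.8, 284 and 12.7 in Eed-null arrays, against 2.90, 18.4 and 32.7 in wild type (2.50 ± 0.38, adjusted p = 1.3e-06). Replicate 1 was far above replicates 2 to 4, which lay above wild type, while replicate 5 lay within the wild-type range. MEF had 38.5 for Lyz2 and 13.9 for Lyz1, low signal for both. A list of 17 macrophage genes was chosen after the values were seen. Its summed signal was 6905 in Eed-null replicate 1, 1293 to 1649 in replicates 2 to 4 and 811 in replicate 5, against 652 to 830.0 in wild type and 616 and 665 in MEF. Of the 10 tested, 3 were called higher (Lyz1, Lyz2 and Ctss) and none lower. Of the 17, 16 were highest in Eed-null replicate 1 among the 12 arrays. C1qa, a complement subunit made by macrophages, read 114.0 in replicate 1 and 1.0 in every other array of both groups, and the protease gene Ctss read 393 in replicate 1, against 2.50 to 20.1 in wild type. In Eed-null replicates 2 to 4 the integrin gene Itgam read 13.9, 23.7 and 22.7, against 21.0 to 31.4 in wild type, and the lysosomal gene Cd68 read 84.5, 71.9 and 90.9, against 104 to 176 in wild type. Over the groups Cd68 was lower in Eed-null arrays (-0.46, adjusted p = 0.0015), while Adgre1 (0.26, adjusted p = 0.18) and Laptm5 (0.27, adjusted p = 0.11) did not pass the test. The summed macrophage signal was highest in Eed-null replicate 1, and the part of such cells in the other results was not tested.

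How much of the 210 rises the MEF level could give was computed gene by gene. The fibroblast share of each array was multiplied by the gene's MEF mean, and the excess of Eed-null over wild type in that product was set beside the measured excess. For 37 of the 210 the product was at least 50% of the measured excess, and for 108 it was at most 10%. Genes that helped to set the share, such as Col3a1, are among the 37. MEF signal was not above wild-type signal for 65 of the 210, against 48.5% of all genes tested, and for 81 of the 102 genes called lower. Eed-null replicate 5 lay above all 7 wild-type arrays for 149 of the 210 (28.4% of all genes tested) and below them for 99 of the 102 (18.2%). Replicate 5 and these wild-type arrays entered the calls that chose the genes, so both counts are a description and no test. Replicate 1 was the highest Eed-null array for 127 of the 210, and replicate 5 the lowest for 110. In bulk RNA a change in the number of cells of a type and a change in RNA per cell cannot be told apart.

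**Figure D3:**
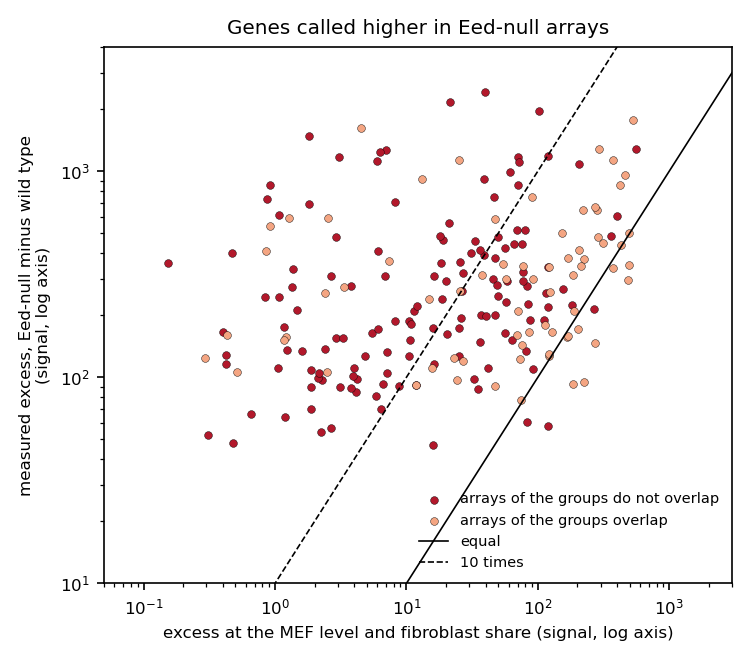
Measured excess of mean signal, Eed-null minus wild type (vertical, log axis), against the excess given by fibroblast share times MEF level (horizontal, log axis), for the 210 genes called higher; dark points are genes whose arrays did not overlap and light points the others. The solid line marks equal values and the dashed line a measured excess 10 times the product; 108 genes lie on or above the dashed line.

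Imprinted genes, which are transcribed from a single parental copy, rose in part. Of 31 tested 5 rose and none fell, with a median of 0.06. Plagl1, a growth-restraining zinc finger gene, had 2960.1, 1944, 1931, 2136 and 2279 in Eed-null arrays, against 19.6 to 36.7 (wild-type replicates 1 to 3) and 387 to 633 (wild-type replicates 4 to 7). The groups did not overlap, and Eed-null was higher by 3.46 ± 0.42 (adjusted p = 1.7e-08), and the 3 probe sets of the gene differed by 0.27, 1.54 and 3.46. Peg3, a paternally expressed zinc finger gene, had 1369.7 to 2222 in Eed-null and 344 to 649 in wild-type arrays (1.64 ± 0.15, adjusted p = 1.6e-11). Igf2, the fetal growth factor, read 320.5, 1954, 484, 687 and 590.3 in Eed-null arrays, against 117, 239 and 347 in wild type (1.53 ± 0.32, adjusted p = 0.00014). Replicate 2 stood apart for Igf2, and replicate 1 overlapped with wild type. Sfmbt2, an imprinted Polycomb gene of the placenta, had 558 to 1251 in Eed-null and 205 to 398 in wild-type arrays (1.54 ± 0.32, adjusted p = 0.00014).

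Ndn, the necdin gene, was called at 1.01 ± 0.27 (adjusted p = 0.0025) but differed by 0.52 (adjusted p = 0.12) against wild-type replicates 4 to 7, and without any 1 of Eed-null replicates 4 and 5 and wild-type replicates 1 to 3 it missed 2-fold (0.86 to 0.99). With averaged probe sets Ndn (0.51), Peg3 (0.88) and Igf2 (0.66) missed the minimum. Hmga2, a chromatin factor of embryonic tissue outside the imprinted list, had 1166 to 1683 in Eed-null and 86.5 to 478 in wild-type arrays (2.13 ± 0.22, adjusted p = 5.9e-10); MEF had 3124. With Plagl1 and Igf2 it made up the 3 of 9 growth and oncofetal genes that rose (median 0.77).

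Immediate early genes, which respond within minutes to growth factors and stress, rose in 4 of 18 tested, with none lower and a median of 0.47. Fos read 611, 549, 600.0, 598 and 352 in Eed-null arrays, against 46.4, 87.3 and 107 in wild type, higher by 2.34 ± 0.20 (adjusted p = 3e-12). Fosb read 123, 90.8, 103, 110.5 and 30.7 in Eed-null arrays, against 16, 20.4 and 29.3 in wild type, higher by 1.15 ± 0.13 (adjusted p = 1.2e-09). Replicate 5 was the lowest Eed-null array for both and still lay above wild type. Jun had 184 to 285 in Eed-null arrays, against 16.7 to 23.3 (wild-type replicates 1 to 3) and 99.1 to 125 (wild-type replicates 4 to 7) (1.52 ± 0.22, adjusted p = 6.4e-07), and missed 2-fold against replicates 4 to 7 (0.88) and with averaged probe sets (0.88). The phosphatase gene Dusp1 had 1078 to 1662 in Eed-null and 542 to 875 in wild-type arrays (1.06 ± 0.19, adjusted p = 1.4e-05), and 0.91 with arrays centred on their median. Without Eed-null replicate 5, 7 of the 18 were called higher. Egr1 and Myc of the same list were not called (-0.39 and -0.36) and were picked after seeing their values.

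Among 11 antigen presentation genes 3 rose and 1 fell (median 0.45). The class I heavy chain H2-K1 had 798, 737, 784, 696 and 576 in Eed-null arrays, against 242, 308 and 381 in wild type (1.16 ± 0.15, adjusted p = 5.1e-08), and H2-D1 had 764, 584, 604, 520.1 and 332 in Eed-null arrays, against 134, 208 and 240.4 in wild type (1.34 ± 0.16, adjusted p = 1.6e-08). These paralogs are alike in sequence and may share signal. H2-D1 has 9 probe sets, 6 of which changed by less than 2-fold (-0.09 to 0.76), and their average (0.60) missed the minimum. B2m, the light chain, read 1285, 1142, 1037 and 1123 in Eed-null replicates 1 to 4 and 402 in replicate 5, against 120.3 to 527 in wild type (1.62 ± 0.29, adjusted p = 1.9e-05). For B2m replicate 5 thus lay within the wild-type range, and MEF had 4087; against wild-type replicates 4 to 7 the difference was 0.96. Psmb10, a subunit of the immunoproteasome, was the member that fell (-1.05 ± 0.18, adjusted p = 1.4e-05), with 86.9 to 183 in Eed-null and 149.8 to 408 in wild-type arrays; without Eed-null replicate 1 (-0.93) or wild-type replicate 6 or 7 (-0.99 and -0.98) it missed 2-fold.

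Regulators of body plan showed small shifts. Of 35 developmental transcription factors outside the Hox clusters 1 rose, Barx1, a homeobox gene of stomach mesenchyme and jaw, with 135, 185, 145, 145 and 141 in Eed-null arrays, against 41.8, 54.0 and 57.4 in wild type (1.10 ± 0.07, adjusted p = 3.9e-16). The median of that list was 0.28. None of 24 Hox genes was called, with a median of 0.34; for 11 of the 24 Eed-null arrays all lay above wild type, where 14.1% of all genes did, and these 11 differed by 0.48 to 0.99. The list is dim, with a median wild-type signal of 21.4, below the wild-type array medians of 50.5 to 54.6. Array medians were higher in Eed-null arrays (58.3 to 62.2). The part of that shift in the Hox differences was not tested, and the 14.1% covers genes of every level. Hoxd13, a gene of digits and hindgut, had 150, 194, 198, 172 and 164 in Eed-null arrays, against 63.7, 71.1 and 106 in wild type (0.96 ± 0.10, adjusted p = 8.6e-10), and passed 2-fold without wild-type replicate 4 (1.02) or Eed-null replicate 1 (1.01). Of 18 streak and mesoderm genes none was called (median 0.26); Evx1, a homeobox gene of the primitive streak, differed by 0.98 ± 0.17 (adjusted p = 8.7e-06) and passed 2-fold without Eed-null replicate 5 (1.09). Bmi1, a Polycomb repressive complex 1 (PRC1) subunit, was the 1 of 17 PRC1 genes to rise, with 456, 378, 456, 483 and 548 in Eed-null arrays, against 57.2, 140.3 and 198 in wild type (1.59 ± 0.23, adjusted p = 5e-07). None of 7 CDK inhibitor genes was called; Cdkn2b lay at 99.1 to 140.4 in Eed-null and 21.7 to 103 in wild-type arrays (0.82 ± 0.22, adjusted p = 0.0022).

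Among signalling genes 2 of 16 nodal pathway genes rose and 2 of 15 hedgehog pathway genes fell. Lefty2, a secreted nodal antagonist, read 1223, 1254, 1481, 951 and 1196 in Eed-null arrays, against 391, 488 and 614 in wild type (1.26 ± 0.31, adjusted p = 0.00099). Smad7, an intracellular inhibitor of TGF-beta signalling, had 1474 to 1918 in Eed-null and 680.1 to 1026 in wild-type arrays (1.03 ± 0.12, adjusted p = 1.1e-08), and missed 2-fold narrowly with arrays centred on their median (0.88), without Eed-null replicate 3 (1.00 after rounding) or without wild-type replicate 2 (0.98). Gli1, a transcription factor and target of hedgehog signalling, read 98.9, 107, 133, 97.7 and 136 in Eed-null arrays, against 183, 408 and 523 in wild type (-1.43 ± 0.19, adjusted p = 8.1e-08). Ptch1, the hedgehog receptor and likewise a target, read 294, 246, 254, 272 and 369.5 in Eed-null arrays, against 686, 758 and 999.7 in wild type (-1.38 ± 0.35, adjusted p = 0.0013). The arrays of the groups did not overlap for these 4 genes. With averaged probe sets Ptch1 differed by -0.67, and against the J1 arrays Gli1 differed by -0.75.

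Of 17 neural genes 1 rose and 2 fell. Neurod1, a neuronal differentiation factor, read 37.9, 48.7, 71.0, 75.6 and 142 in Eed-null arrays, against 181, 586 and 892 in wild type, a difference of -2.38 ± 0.28 (adjusted p = 7e-09). Wild-type replicates 1 and 2 were the lowest wild-type arrays and Eed-null replicate 5 the highest Eed-null array. Gbx2, a homeobox gene of the hindbrain and of ES cells, had 131 to 296 in Eed-null and 394 to 576 in wild-type arrays (-1.02 ± 0.14, adjusted p = 2.2e-07), and missed 2-fold without Eed-null replicate 1 (-0.86), wild-type replicate 1 (narrowly) or wild-type replicate 3 (-0.97). Zic1, a zinc finger gene of the dorsal neural tube, had 64.2, 70.3, 87.4, 86.2 and 106 in Eed-null arrays, against 8.70, 20.0 and 26.1 in wild type (1.18 ± 0.21, adjusted p = 1.2e-05); its second probe set differed by 0.08, and the average of both (0.63) missed 2-fold. Ina, the neuronal intermediate filament alpha-internexin, is not in the list and fell, with 198 to 323 in Eed-null and 727 to 1097 in wild-type arrays (-1.78 ± 0.21, adjusted p = 1.3e-08).

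**Figure D4:**
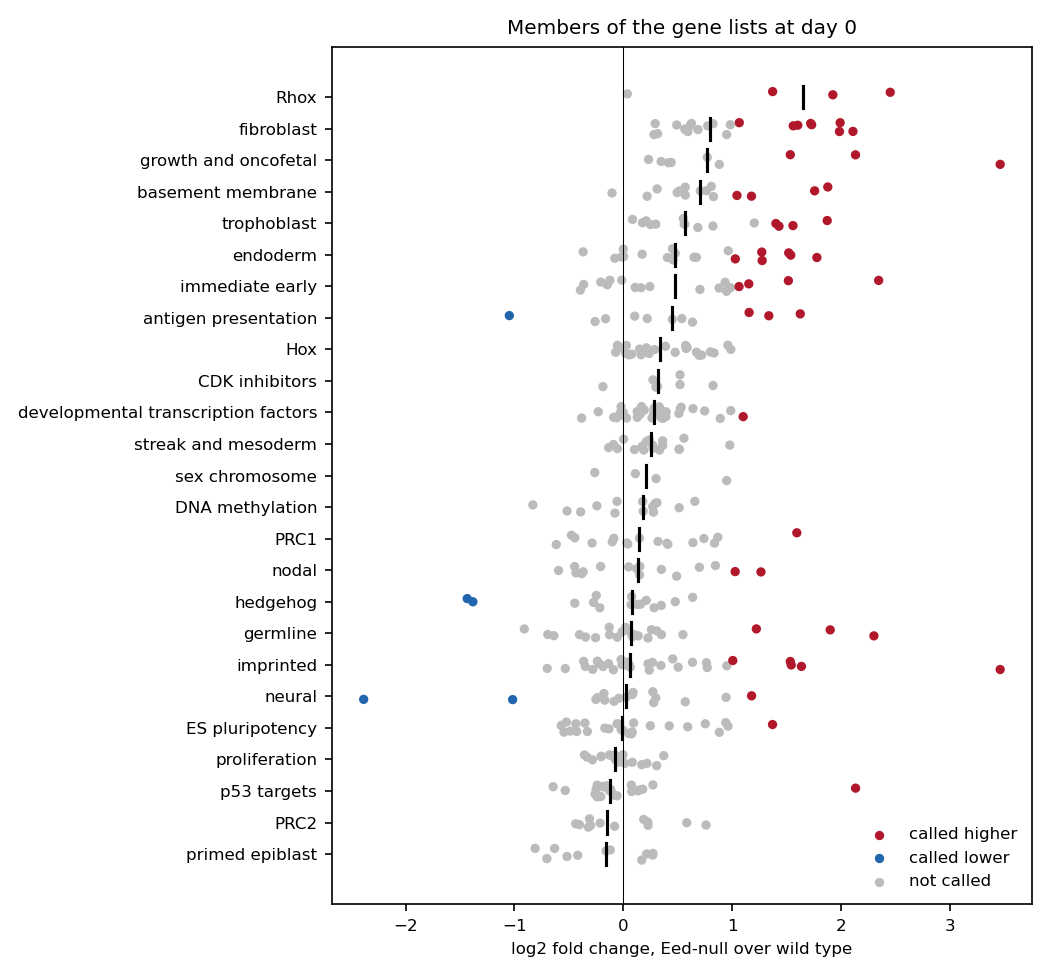
Log2 fold change of each tested member of 25 gene lists, Eed-null over wild type at day 0 (points), with the list median (black bars); red points were called higher, blue points lower and grey points not called. The Rhox, fibroblast, growth and basement membrane lists have the highest medians (1.65, 0.80, 0.77 and 0.71), and the primed epiblast list the lowest (-0.16).

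Other falls lay outside the lists. Foxp1, a forkhead transcription factor, read 133, 135, 171, 147 and 238 in Eed-null arrays, against 686, 823 and 971 in wild type, a difference of -2.14 ± 0.13 (adjusted p = 2.2e-16). Aass, which starts lysine breakdown, read 60.3, 34.5, 44.6, 48.2 and 70.5 in Eed-null arrays, against 212, 303 and 646 in wild type, a difference of -2.15 ± 0.17 (adjusted p = 1.7e-13). The Foxp1 values were tight in both groups, whereas wild-type Aass was highest in the J1 arrays (mean 598, against 269 in CJ7 and 267 in E14tg1). Calml4, a calmodulin-like gene (-1.96 ± 0.13), Zfp423, a zinc finger gene of BMP signalling and fat cell fate (-1.60 ± 0.17), and Thg1l, a tRNA-modifying enzyme (-1.79 ± 0.11), also fell with no overlap of arrays. Gm20767, a predicted gene, had 31.1 to 67.8 in Eed-null and 130.4 to 287 in wild-type arrays (-1.59 ± 0.19, adjusted p = 1.4e-08).

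Tmem38b, an intracellular cation channel, Rbm18, an RNA-binding protein, and F8a, a partner of huntingtin, varied from array to array within both groups. Tmem38b read 308, 588, 200.5, 387 and 352 in Eed-null arrays, against 654, 1666 and 2492 in wild type (-1.97 ± 0.33, adjusted p = 5.7e-06). Rbm18 (-1.52 ± 0.20) and F8a (-1.56 ± 0.29) shared its extremes: replicate 2 was the highest Eed-null array, replicate 4 the lowest and replicate 5 the highest wild-type array in all 3 genes. Each has a further probe set that changed by less than 2-fold, and with averaged probe sets the differences were -0.40, -0.59 and -0.85. For Thg1l, with a second probe set at 0.16, the mean of both was -0.82.

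By chromosome the median log2 fold change lay between -0.04 (chromosome 8, 721 genes) and 0.13 (chromosome 6, 680 genes). On chromosome X 2.80% of 465 genes were called higher and 2.15% lower, and on chromosome 6 2.79% and 0.735%. Of the sex chromosome list none was called among 4 genes tested; Xist, the RNA of X inactivation, had 496 to 816 in Eed-null and 337 to 605 in wild-type arrays, and the Y-linked gene Kdm5d differed by -0.26 ± 0.09. Of 14 DNA methylation genes none was called, and Tet3, a methylcytosine oxidase near background, differed by -0.83 ± 0.18 (adjusted p = 0.0003). Among genes next to each other on a chromosome, 9 pairs were called the same way, all higher, including Col4a1 with Col4a2, Col3a1 with Col5a2, Lyz1 with Lyz2, and Rhox6 with both Rhox5 and Rhox9.

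After LIF withdrawal a minority of the day 0 calls were called again. Of the 210 genes called higher, 26 were called higher at day 2 (background 0.456%) and 43 at day 6 (background 1.85%), 21 of them at both; none was called lower at day 2 and 7 were at day 6. Of the 102 called lower, 16 were called lower at day 2 (background 0.579%) and 13 at day 6 (background 1.25%), 7 of them at both, and 4 were called higher at day 6. The Eed-null arrays of those days carried fibroblast shares of 2.70% and 2.77% at day 2 and 3.54% and 3.75% at day 6, against 1.97% to 2.83% and 4.41% to 7.38% in wild type. The same measure read 15.1% and 13.6% in wild-type and 11.7% and 13.1% in Ezh2-null arrays at day 8. Neural stem cell arrays had 2.67% and 2.87%. Whether the measure stands for feeder cells after LIF withdrawal was not tested. With only 2 Eed-null arrays a day, leaving out 1 lowered the day 2 counts to 15 and 17 higher and 8 and 9 lower, and the day 6 counts to 31 and 33 higher and 9 and 10 lower.

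Several of the largest rises were called at all 3 days. Rhox6 read 198 and 218 at day 2 and 221 and 245 at day 6 in Eed-null arrays, against 6.30 to 44.2 and 12.8 to 58.3 in wild type, with differences of 2.12 ± 0.60 (adjusted p = 0.03) and 2.19 ± 0.58 (adjusted p = 0.0069). Tex15 read 377 and 425 and 279 and 299 in Eed-null arrays, against 68.6 to 174 and 62.5 to 109 in wild type (1.72 ± 0.23 and 1.55 ± 0.23). Neither gene overlapped between genotypes at any day. Rhox9 (1.24 ± 0.36 at day 2 and 1.12 ± 0.35 at day 6), Rhox5 (2.40 ± 0.57 and 2.19 ± 0.55), Gm6958 (3.42 ± 0.34 and 2.58 ± 0.33), Zfp934 (1.76 ± 0.19 and 1.94 ± 0.18) and Pmaip1 (1.48 ± 0.25 and 1.49 ± 0.24) were likewise called at both later days. So were Nrk (1.46 ± 0.24 and 1.63 ± 0.24), Barx1 (1.06 ± 0.10 and 1.5 ± 0.10) and Krt7 (1.00 ± 0.28 and 2.58 ± 0.27). Tex19.1 differed by 2.34 ± 0.35 and 2.50 ± 0.34; its day 6 signal, 1136 and 1015 in Eed-null arrays and 107 to 229 in wild type, lay below the day 0 range of the same genotype. Among the falls, Trub1 (-2.54 ± 0.33 and -2.01 ± 0.32) and Thg1l (-1.90 ± 0.17 and -1.85 ± 0.16) were called at both later days.

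Other differences were smaller or of the other sign at later days. The day 0 values both chose these genes and enter the change of effect from day 0, so each change is given as a description, with its standard error and no test. Nod1 read 278 and 347 at day 2 and 88.4 and 82.0 at day 6 in Eed-null arrays, against 33.2 to 42.9 and 17.5 to 37.6 in wild type, and its effect at day 6 minus day 0 was -1.67 ± 0.16. Sycp1 read 255 and 262 and 51.8 and 55.2 in Eed-null arrays, against 30.9 to 56.7 and 16.9 to 31.1 in wild type, a change of -1.33 ± 0.19 from day 0 to day 6. Neither was called at day 6, though the Eed-null arrays still lay above wild type. Dpys read 12.2 and 8.50 at day 2 and 21.1 and 20.3 at day 6 in Eed-null arrays, against 54.3 to 79.5 and 17.5 to 26.2 in wild type, with changes of effect of 1.80 ± 0.28 and 2.95 ± 0.28 from day 0. By day 6 the genotypes overlapped for Dpys and wild-type signal lay below its day 0 range. Kbtbd11 read 17.7 and 23.3 in Eed-null arrays at day 6, against 25.9 to 67.0 in wild type, and its change of effect from day 0 was 2.43 ± 0.38.

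Sox17 turned: at day 6 it read 120.1 and 125 in Eed-null arrays, against 222 to 628 in wild type, a difference of -1.38 ± 0.47 (adjusted p = 0.039), and the change of effect from day 0 was -2.91 ± 0.57. The second Sox17 probe set was compared at day 0 only. Col4a1 read 3791 and 3833 in Eed-null arrays at day 6, against 2584 to 3641 in wild type, a difference of 0.36 ± 0.28 (adjusted p = 0.42). Fos was low in both genotypes at day 2, with 42.6 and 53.7 in Eed-null and 43.5 to 72.1 in wild-type arrays, and higher again in Eed-null arrays at day 6 (1.31 ± 0.29, adjusted p = 0.00099). Of the 210 genes called higher the change of effect was called for 68 at day 2 and 78 at day 6, and of the 102 called lower for 37 and 50; over all genes tested it was called for 2.63% and 4.69%. These counts are a description for the same reason.

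**Figure D5:**
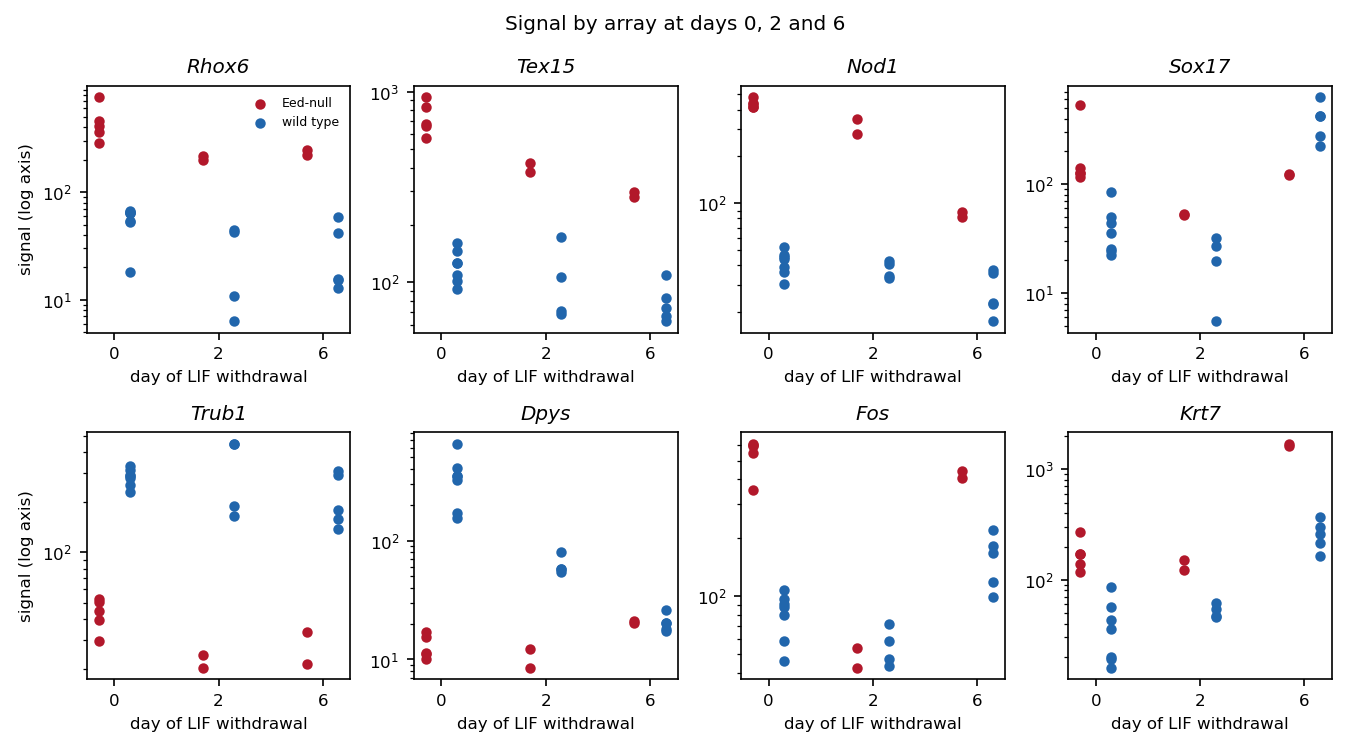
Signal by array (log axes) of 8 genes at days 0, 2 and 6 of LIF withdrawal, Eed-null on the left and wild type on the right at each day. Rhox6, Tex15 and Trub1 stay apart at all days, Nod1 comes nearer to wild type and Dpys meets it by day 6, Sox17 turns, Fos meets wild type at day 2, and Krt7 is higher in Eed-null arrays at every day.

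Ezh2-null cells at day 0 were set beside the Eed-null cells. Both were measured against the same 7 wild-type arrays, so each comparison's own values are given. Against wild type 7 genes were called in Ezh2-null cells (0.0507% of those tested). Tex15 differed from wild type by 2.30 ± 0.16 in Eed-null and -0.03 ± 0.15 in Ezh2-null cells, and Rhox6 by 2.45 ± 0.41 in Eed-null and 0.05 ± 0.39 in Ezh2-null cells. For Sycp1 the differences were 1.90 ± 0.11 in Eed-null and 0.02 ± 0.10 in Ezh2-null cells, for Hand1 1.87 ± 0.31 and 0.03 ± 0.30, and for Col4a1 1.76 ± 0.20 and -0.35 ± 0.19, in the same order. Nod1 differed by 0.36 ± 0.09 (adjusted p = 0.029) and Smad7 by 0.77 ± 0.12 (adjusted p = 7.5e-05) in Ezh2-null cells, below 2-fold, and Gm20767 fell in both (-1.59 ± 0.19 in Eed-null and -2.22 ± 0.18 in Ezh2-null cells). Plagl1 differed by 1.13 ± 0.40 (adjusted p = 0.2) in Ezh2-null cells.

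Set directly against Ezh2-null arrays, 197 genes (1.43%) were higher and 107 (0.775%) lower in Eed-null arrays. Of the 210 and 102 genes called against wild type, 144 and 65 were called the same way in this contrast, which shares the Eed-null arrays. It includes Nod1 (2.30 ± 0.10), Tex15 (2.33 ± 0.16), Rhox6 (2.40 ± 0.42), Col4a2 (2.22 ± 0.20), Fos (2.58 ± 0.21), Trub1 (-2.20 ± 0.23) and Dpys (-2.67 ± 0.16), but not Dppa3 (0.82 ± 0.25), Tex19.1 (0.46 ± 0.25), Ndn (0.47 ± 0.28) or Zic1 (0.67 ± 0.21). With averaged probe sets the counts were 86 and 33.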

How the data were processed

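RNA was extracted with Trizol and biotin-labelled cRNA was hybridised, per the labels' protocols. The deposited values are linear intensities, 1 for each probe set on each array; no source used here states the authors' summarisation or scaling. These intensities lay between 0.4 and 33985.898. Log2 array medians spanned 0.2035 (a span over 0.3 would have led to renormalisation), so the intensities were left as deposited. The number of arrays limits the precision.

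Of 45037 probe sets, 34945 had 1 gene symbol in the platform annotation, 932 several and 9160 none; only those with 1 were used. Matching 34741 of them to RefSeq changed 0 symbols. Each gene was represented by its brightest probe set over the 53 arrays (18193 genes), and the 13807 genes above the array median on at least 2 arrays were tested. limma 3.58.1 in R 4.3.3 was fitted on log2(value + 32) with 15 group means, 38 residual and 4.6 prior degrees of freedom; each adjusted p is from this fit, by Benjamini-Hochberg over all genes tested. The fit was tested on simulated data of the day 0 comparison: of 50 genes each changed 3-, 4-, 8- and 16-fold, 50 were recovered at each size, with 2 false calls among 13807 genes. The simulated noise was independent between arrays and held no difference of array set, line or fibroblast share. The false calls thus do not measure those in these data, and changes under 3-fold were not simulated.

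The members, gene lists and tests were chosen with earlier results of these data known. Named genes were the 15 largest non-overlapping calls in each direction, called members of each list (or the 2 with the smallest p), genes on or off, the 8 largest rises with MEF signal not above wild type, and Eed, Ezh2, Ezh1, Suz12, Pou5f1, Nanog and Sox2; other genes were chosen after their values were seen. Promoter windows are RefSeq's (GRCm38.p6). The planned ratio of control probe sets was not computed. Same-numbered Eed-null and wild-type replicates did not deviate together (correlations from -0.145 to 0.141), so the numbers were not read as pairs. Alternatives changed the normalisation, pseudocount, filter, probe sets, spread model, wild-type arrays, fold minimum and fibroblast share, and left out each array. Figures were drawn with matplotlib 3.10.9.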

Additional observations from a re-analysis of the deposited data

Results flagged for a closer look

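Within the groups of 5 Eed-null and 7 wild-type arrays, 28 of 180 groups of values examined held an array whose gap to its nearest neighbour took up most of the range (15.6%); chance gives about 1 in 20. No explanation was tested for any of them. Eed-null replicate 1 stood apart as the highest array for Sox17 (527), Col4a1 (2031), Col4a2 (1228), Col4a5 (168), Lama1 (1179), Lyz1 (2122) and Lyz2 (2178). Eed-null replicate 2 was apart and highest for Hand1 (629), Igf2 (1954), Rhox9 (590.2), Barx1 (185) and F8a (219.9), and replicate 3 for Shfl (406). Sfmbt2 was lowest in Eed-null replicate 4 (558). Eed-null replicate 5 was apart and lowest for B2m (402), Fbln2 (67.4), Fos (352) and Thg1l (56.9), and highest for Pou3f1 (555) and Zfp423 (245). Wild-type replicate 3 was apart and highest for Cubn (139.8), Dab2 (229), Lama1 (438) and Srgn (241), and lowest for Rhox6 (18.1). The other wild-type arrays apart were replicate 2 for Tet3 (81.5), replicate 4 for Hoxd13 (106) and replicate 5 for Barx1 (41.8).

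The Eed-null effect passed the threshold for a change from day 0 in 11 of 40 comparisons on 20 genes, where 2.63% of all genes tested passed at day 2 and 4.69% at day 6. All 20 genes were called at day 0, and the day 0 values enter the change, so the 11 are a description and no test. It was lower at day 6 for Sox17 (-2.91), Nod1 (-1.67), Col4a1 (-1.40), Sycp1 (-1.33) and Fos (-1.03), and lower at day 2 for Fos (-2.46). It was higher at day 6 for Dpys (2.95), Kbtbd11 (2.43), Tex19.1 (1.27) and Krt7 (1.02), and higher at day 2 for Dpys (1.80).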

How the results depend on the processing

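Against 210 genes higher and 102 lower, the counts were 391 and 174 with a pseudocount 4 times lower, 70 and 30 with one 4 times higher, 121 and 56 when probe sets were averaged, 450 and 155 against J1 arrays only, 428 and 151 against wild-type replicates 1 to 3, and 165 and 158 against E14tg1 arrays. The total was 565, 100, 177, 605 and 579 in the first 5 of these. With arrays centred on their median, which moved the median of all genes to -0.11, 132 were higher and 200 lower. Subtracting the fibroblast share gave 158 higher and 304 lower, and subtracting and rescaling 220 and 246. Eed-null replicate 5 against wild-type replicates 1 to 3 gave 254 and 92; that lone array was assumed to vary like the other groups. Rescaling, this contrast and the alternatives for later days and Ezh2-null cells were chosen after seeing the data. Without a minimum fold 5757 were called (3326 and 2431), and at 1.5-fold 1732 (1038 and 694). Leaving out 1 array gave totals of 271 to 365. With the replicate block on the 12 arrays alone 254 were higher and 91 lower (345 in all).

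After subtraction of the fibroblast share Col3a1 differed by 0.00 with and without rescaling, and Col5a1 by -0.26 with and -0.27 without it. Both genes are among the 15 that set the share, so their drop is partly built in and is no test. In Eed-null replicate 5 against wild-type replicates 1 to 3 Col3a1 differed by -0.21 and Lyz1 by -0.052. The cause was not tested. Of the genes called at day 0, those called again with the higher pseudocount were 16 higher and 6 lower at day 2, 6 lower at day 6, and 63 and 29 against Ezh2-null arrays. With averaged probe sets they were 9 lower at day 2, 8 lower at day 6, and 86 and 33 against Ezh2-null arrays. With CJ7 arrays only 9 were lower at day 2, and with wild-type replicates 3 and up 9 at day 2 and 8 at day 6. Leaving out 1 array gave 15 to 26 higher and 8 to 18 lower at day 2, and 31 to 46 higher and 9 to 12 lower at day 6.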
